A study of Mus musculus with 8 samples.

Results

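Neurog1, Neurog2, Neurod1, Neurod2, Neurod4, Neurod6, Bhlhe22 and Nhlh1 are basic helix-loop-helix (bHLH) transcription factor genes of the glutamatergic lineage of the forebrain, and their chromatin accessibility is described here, element by element, in the embryonic mouse cortex and ganglionic eminences. An element is a stretch of chromatin called as a peak in at least 1 sample, with the overlapping peaks of all samples merged. The members were all elements within 20 kb of the body of one of the 8 genes, out of 21938 protein-coding genes. They numbered 54 of the 292532 elements of the data set, and 26 of them, of 68274 in all, had a peak in every sample and could be tested. Neurog1, Neurod4 and Nhlh1 had 9 elements each, Neurog2 and Neurod2 had 8, Neurod1 and Neurod6 had 4 and Bhlhe22 had 3.

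Single-nucleus ATAC-seq, in which a transposase cuts accessible DNA in nuclei captured in droplets, was carried out on wild-type (WT) mouse embryos. Cortex (CTX) and the medial, lateral and caudal ganglionic eminences (MGE, LGE and CGE, together the GEs) were each represented by 2 samples. CTX replicate 2 carried the label E14.5 and every other sample the label E12.5, so that age and replicate cannot be told apart within CTX. No transgene, deletion or treatment is given for any group, the labels do not say how many embryos were pooled, and p-values therefore measure the spread between these samples, which may be technical.

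bHLH factors bind the E-box, a short palindromic site, as dimers with broadly expressed E proteins. In the developing cortex the proneural factors Neurog2 and Neurog1 act in progenitors of the ventricular zone, and they are known to activate a series of further bHLH genes in cells that leave the cell cycle. Neurod4, Nhlh1 and Neurod1 are switched on early in that series, and Neurod2, Neurod6 and Bhlhe22 are known from postmitotic projection neurons. Progenitors of the GEs rely instead on other factors, the Dlx homeobox genes among them, and give rise to GABAergic neurons.

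Libraries held 3465 to 6845 nuclei and 77387940 to 138873845 counts in peaks, with medians of 14584 to 22209.5 counts per nucleus, and pairs of libraries shared 15 to 56 barcodes. Values are given as CPM, counts scaled to the same total in every sample, that total being the counts in the 68274 elements with a peak in all 8 samples. Marker windows followed the labelled regions: all 4 pallial progenitor markers (Emx1, Emx2, Pax6 and Lhx2) were higher in CTX, and 7 of 8 GABAergic markers were lower (4.79% of all genes were higher and 1.01% lower), their summed level being 935 and 1114 CPM in CTX against 1901 to 2854 CPM in the GEs. With the length covered by peaks as an offset, 0 of the pallial and 4 of the GABAergic markers were called. The CTX samples differed more from each other than the GE samples did. The standard deviation over elements of the log2 ratio of replicate 2 over replicate 1 came to 1.26 for the CTX pair and to 0.73, 0.64 and 0.47 for the MGE, LGE and CGE pairs.

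The sequences of 2 distal elements and 3 promoters follow. The distal elements were chosen after their values were seen, and are 2 of the elements that were higher in both CTX samples than in every GE sample and higher again in CTX replicate 2 than in replicate 1, and the promoters are those of the 3 genes with the largest window differences. Each distal sequence is the 300 bases in the middle of the stretch covered by the peaks of all 8 samples, and each promoter the 250 bases before the RefSeq start site, on the strand of the gene in GRCm38. Capitals mark the E-box CANNTG and the homeodomain core TAAT with its complement ATTA, each searched on both strands.
Neurog2 element 12504 bp downstream, chr3:127646256-127646555, plus strand: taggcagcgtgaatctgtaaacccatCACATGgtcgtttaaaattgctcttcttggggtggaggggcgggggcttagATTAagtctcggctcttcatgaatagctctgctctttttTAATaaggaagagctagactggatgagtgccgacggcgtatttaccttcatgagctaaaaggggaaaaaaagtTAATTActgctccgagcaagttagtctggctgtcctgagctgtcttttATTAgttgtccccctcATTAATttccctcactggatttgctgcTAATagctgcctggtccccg
Neurod6 element 18.9 kb upstream, chr6:55700558-55700857, minus strand: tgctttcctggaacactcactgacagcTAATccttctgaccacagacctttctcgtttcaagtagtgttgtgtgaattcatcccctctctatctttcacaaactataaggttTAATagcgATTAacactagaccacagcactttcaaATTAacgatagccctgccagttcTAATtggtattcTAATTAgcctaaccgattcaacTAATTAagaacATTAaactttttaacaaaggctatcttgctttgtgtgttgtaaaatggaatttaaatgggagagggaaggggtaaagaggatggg
Neurog2 promoter, chr3:127632886-127633135, plus strand: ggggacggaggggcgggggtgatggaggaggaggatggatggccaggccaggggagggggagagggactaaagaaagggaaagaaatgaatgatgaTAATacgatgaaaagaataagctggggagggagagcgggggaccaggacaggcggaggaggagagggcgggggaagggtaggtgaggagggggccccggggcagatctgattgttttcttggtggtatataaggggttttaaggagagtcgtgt
Neurod2 promoter, chr11:98329646-98329895, minus strand: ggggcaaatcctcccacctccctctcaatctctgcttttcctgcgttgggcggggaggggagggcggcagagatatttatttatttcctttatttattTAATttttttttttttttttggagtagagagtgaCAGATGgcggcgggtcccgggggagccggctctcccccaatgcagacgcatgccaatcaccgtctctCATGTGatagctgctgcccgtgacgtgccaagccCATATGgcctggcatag
Neurod6 promoter, chr6:55681264-55681513, minus strand: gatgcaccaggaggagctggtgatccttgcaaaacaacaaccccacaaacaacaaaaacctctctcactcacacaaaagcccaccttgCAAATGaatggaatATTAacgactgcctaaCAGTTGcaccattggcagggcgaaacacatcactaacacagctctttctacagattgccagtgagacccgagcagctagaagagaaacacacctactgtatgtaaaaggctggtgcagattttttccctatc

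E-boxes are common in accessible chromatin, so their counts are given beside those of all elements. CANNTG was present in 19 of the 26 element windows (73.1%), against 78.1% of the same windows in all 68274 elements, and in 9 of the 14 windows of elements called higher in CTX. The forms CAGATG and CAGCTG, both instances of CANNTG, were present in 6 and 9 of the 26 windows (23.1% and 34.6%), against 22.5% and 23.5% of all windows. RefSeq promoters were found for 7 of the 8 members, with 2 entries for Neurod4. Of these 8 promoter sequences 4 held CANNTG, against 66.2% of 32817 promoters. The Neurog2 promoter held none. The TAAT core, which was chosen after the sequences had been read, was present in 18 of the 26 member windows (69.2%) and in 9 of the 14 called ones, against 65.7% of all windows. At least 5 matches were found in 5 of the 26 member windows (19.2%), against 10.5% of all windows. A match here describes letters in the window and not a bound site.

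Of the 26 tested elements 14 were higher in CTX than in the mean of the GEs and 0 were lower (edgeR quasi-likelihood test over all 68274 elements, adjusted p of 0.05 or less). Across all tested elements 14.9% were called, 9.49% as higher in CTX. Both CTX samples lay above every GE sample in 14 of the 26, as was the case for 10.8% of all elements. The called elements belonged to Neurog2 (4), Neurod2 (4), Neurod6 (2), Bhlhe22 (2) and Nhlh1 (2), and Neurog1, Neurod1 and Neurod4 had none. Peaks were called in each sample separately and were often longer in CTX, so each fold change was also computed with the covered length of the element as an offset, which compares counts per covered base. With that offset 10 of the 26 were called (9.17% of all elements, 5.12% as higher). On counts without the offset, fewer than the 14 were called in most fits that left out a sample, and the fewest without CGE replicate 2.

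**Figure D1:**
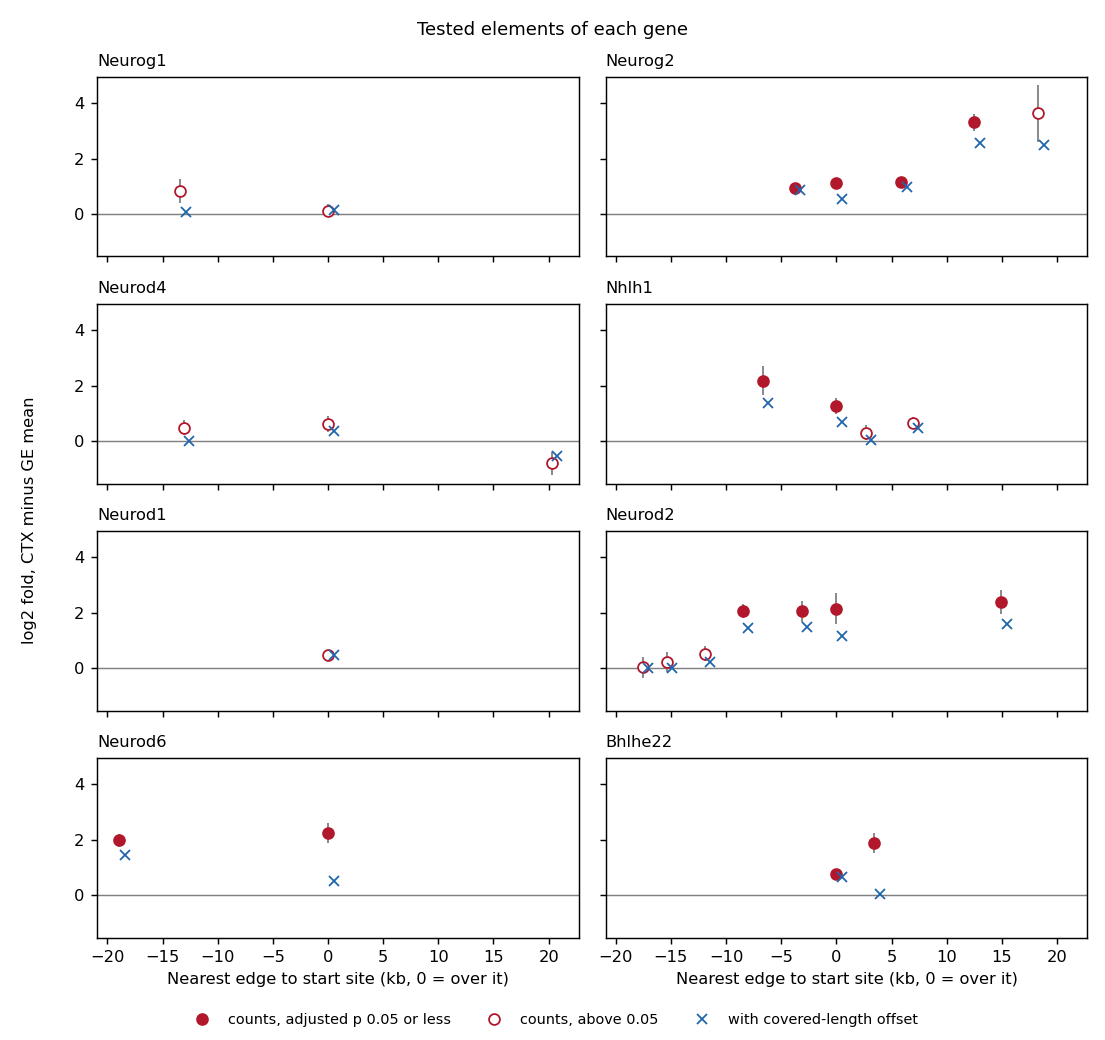
log2 fold of CTX over the mean of the GEs (vertical axis) for each tested element against the distance of its nearest edge from the start site of the gene in kb (horizontal axis, positive downstream). Circles are fits on counts with their standard errors, filled at an adjusted p of 0.05 or less, and crosses, drawn slightly to the right, are fits with the covered length as an offset; the Neurog2 elements at 12504 bp and 18.3 kb lie highest, and the Neurod6 start-site element and the Bhlhe22 distal element fall towards 0 with the offset.

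Neurog2 (chr3:127633135-127635631, plus strand), the main proneural gene of dorsal progenitors, was more accessible in CTX, with 4 of its 5 tested elements called on counts. Its window, the sum over its elements, held 312 CPM in CTX replicate 1 and 387 in replicate 2. The MGE samples held 105 and 105, the LGE samples 150 and 135, and the CGE samples 167 and 166. The groups did not overlap, and the fold was 1.40 ± 0.10 on the log2 scale (SE, edgeR adjusted p = 0.00316). Windows of 4 of the 8 members were called higher in CTX and none lower, against 5.79% of the 19163 genes tested, 4.79% as higher and 1.01% as lower.

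The element over the Neurog2 start site (chr3:127630105-127638414), which takes in the gene with its exons and UTRs, measured 112 and 149 CPM in CTX and 47.4 to 71.2 CPM in the GEs (log2 fold 1.13 ± 0.14, SE, edgeR adjusted p = 0.00437). Per covered base the difference was not called, with a log2 fold of 0.56 (edgeR adjusted p = 0.0738). The elements 3.79 kb upstream and 5.89 kb downstream, both intergenic, gave log2 folds of 0.95 and 1.16 (edgeR adjusted p = 0.00459 and 0.00310). They kept 0.89 and 0.99 with the offset (edgeR adjusted p = 0.00629 and 0.0175). The start-site element and the one 3.79 kb upstream also lie within 20 kb of Zgrf1.

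In the fit of both CTX samples, the largest called difference of any member element lay 12504 bp downstream of the Neurog2 start site. Alone against the GEs, CTX replicate 1 (E12.5) gave it a log2 fold of 2.54 and CTX replicate 2 (E14.5) 3.85. With CTX replicate 1 alone other called elements exceeded it, such as the Neurod2 element 14.9 kb downstream (3.06). The Neurog2 element, the intergenic chr3:127645639-127647451, measured 32.2 CPM in CTX replicate 1 and 77.2 in replicate 2. The MGE samples measured 1.89 and 2.85, the LGE samples 8.08 and 5.92, and the CGE samples 12.53 and 10.6. Every CTX value was above every GE value, MGE was lowest, and the log2 fold was 3.31 ± 0.31 (SE, edgeR adjusted p = 0.00267). It was 2.57 with the covered-length offset (edgeR adjusted p = 0.00206) and remained called in all 8 fits that left out a sample. A second intergenic element 18.3 kb downstream that also lies within 20 kb of Alpk1 followed the same order, with 31.4 and 45.2 CPM in CTX, 5.05 and 3.42 in LGE, 8.64 and 6.0 in CGE and 2.25 in MGE replicate 2. In MGE replicate 1 only 13 bases of it were called as a peak, with 0 counts. The log2 fold of 3.63 ± 1.02 did not pass the test on counts (standard error, edgeR adjusted p = 0.0554), and the offset gave 2.48 (edgeR adjusted p = 0.00318).

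Neurog1 (chr13:56250478-56252163, minus strand), the other neurogenin of the dorsal telencephalon, did not pass the test over both CTX samples. Its window held 69.3 and 72.2 CPM in CTX, 74.9 and 55.0 in the MGE samples, 51.4 and 68.6 in the LGE samples, and 51.9 and 77.7 in the CGE samples. The CTX samples lay within the range of the GEs, with a log2 fold of 0.20 ± 0.18 (standard error, edgeR adjusted p = 0.609). The start-site element, 57.9 and 63.5 CPM in CTX against 47.2 to 70.1 CPM in the GEs, made up most of the window. The other tested element, 13.4 kb upstream, measured 8.49 and 2.70 CPM in CTX against 2.18 to 4.11 CPM in the GEs (edgeR adjusted p = 0.279). With CTX replicate 1 as the lone CTX sample that element was called (log2 fold 1.43, edgeR adjusted p = 0.01999).

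**Figure D2:**
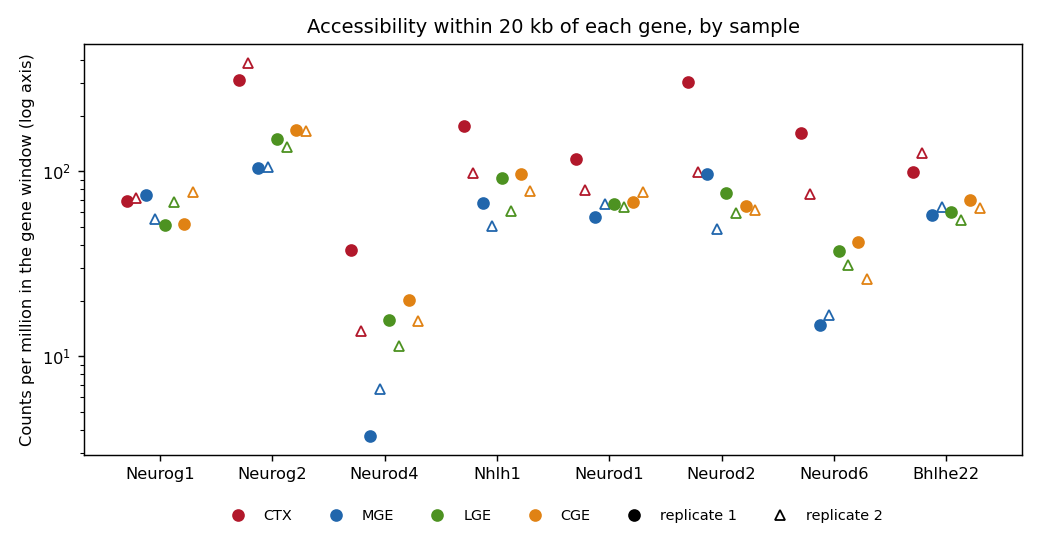
Summed CPM of all elements within 20 kb of each gene (vertical log axis) for the 8 samples, ordered from the proneural genes on the left to genes of postmitotic neurons on the right. Circles are replicate 1 and triangles replicate 2. Both CTX samples lie above all GE samples for every gene but Neurog1 and Neurod4 (10.5% of all genes). In replicate 2 the margin is less than 4 CPM for Neurod1, Neurod2 and Nhlh1, and the Neurod1 sums include an element with a peak in CTX alone. The Neurod2, Neurod4 and Neurod6 circles of CTX lie more than 2-fold above the triangles.

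Neurod4 (chr10:130268152-130280240, minus strand), a target of the neurogenins, had the lowest window level of the 8 genes in each sample. It measured 37.5 and 13.8 CPM in CTX, 3.71 and 6.68 in the MGE samples, 15.7 and 11.4 in the LGE samples, and 20.1 and 15.5 in the CGE samples. CTX replicate 2 lay within the range of the GEs, and the log2 fold of 1.29 ± 0.38 did not pass (standard error, edgeR adjusted p = 0.0961). The start-site element was faint everywhere, with 2.92 and 2.95 CPM in CTX and 1.22 to 3.04 CPM in the GEs. Most of the excess of CTX replicate 1 came from an element 16.4 kb downstream, with a peak in 6 samples, which measured 14.0 CPM in CTX replicate 1, 0.497 in CTX replicate 2 and at most 1.04 in the GEs. That element could not be tested, since the MGE samples had no peak there.

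Nhlh1 (chr1:172052292-172057573, minus strand), which is expressed transiently in newly born neurons, showed a similar split. Its window held 175 and 97.9 CPM in CTX, 67.4 and 50.7 in the MGE samples, 92.2 and 60.9 in the LGE samples, and 96.4 and 78.2 in the CGE samples (log2 fold 0.93 ± 0.25, SE, edgeR adjusted p = 0.0751). The start-site element measured 63.7 CPM in CTX replicate 1 and 26.7 in replicate 2. The GEs ranged from 11.7 CPM in MGE to 29.6 in CGE, so that CTX replicate 2 lay below both CGE samples (log2 fold 1.26 ± 0.28, SE, edgeR adjusted p = 0.0275, called in 2 of 8 fits without a sample). With the covered-length offset the log2 fold was 0.69 and was not called (edgeR adjusted p = 0.0611). The element 6.68 kb upstream, also within 20 kb of Ncstn and Copa, measured 17.4 and 4.13 CPM in CTX against 1.25 to 4.07 CPM in the GEs (log2 fold 2.19 ± 0.51, SE, edgeR adjusted p = 0.0311, called in 1 of 8). The strongest Nhlh1 element, 6.90 kb downstream, measured 72.8 and 56.4 CPM in CTX and 30.7 to 54.6 CPM in the GEs, and was not called (edgeR adjusted p = 0.0824).

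Neurod1 (chr2:79452521-79456751, minus strand), known from intermediate progenitors and young neurons, did not pass the test over both CTX samples. Its window held 116 and 79.1 CPM in CTX, 56.7 and 67.0 in the MGE samples, 66.8 and 64.4 in the LGE samples, and 68.7 and 77.5 in the CGE samples. Both CTX values were highest, replicate 2 only just, and the log2 fold of 0.59 ± 0.15 was not called (standard error, edgeR adjusted p = 0.0696). The start-site element, which also overlaps Cerkl, measured 101 and 72.7 CPM in CTX and 56.7 to 74.4 CPM in the GEs (log2 fold 0.47 ± 0.15, SE, edgeR adjusted p = 0.0793). With CTX replicate 1 as the lone CTX sample it was called (log2 fold 0.68, edgeR adjusted p = 0.0157). An intergenic element 4.86 kb upstream had a peak in the CTX samples alone, with 5.23 and 4.48 CPM. Its counts entered the window sums of CTX only. At the start-site element, the only one tested, CTX replicate 2 lay below CGE replicate 2.

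Neurod2 (chr11:98325415-98329648, minus strand), a gene of postmitotic glutamatergic neurons, had the widest spread within CTX. Its window held 303 CPM in CTX replicate 1 and 99.6 in replicate 2. The MGE samples held 96.3 and 48.9, the LGE samples 76.0 and 59.8, and the CGE samples 65.1 and 61.9. Replicate 2 was barely above the highest GE sample, and the log2 fold of 1.60 ± 0.37 (standard error, edgeR adjusted p = 0.0496) was called in 1 of 8 fits without a sample. The start-site element, the longest of all member elements at 14292 bases, measured 163 and 28.2 CPM in CTX and 36.5 CPM in MGE replicate 1, with 13.3 to 24.9 CPM in the other GE samples. Groups overlapped there, and the log2 fold of 2.14 ± 0.56 (standard error, edgeR adjusted p = 0.0445) was likewise called in 1 of 8. With the covered-length offset the log2 fold was 1.15 and was not called (edgeR adjusted p = 0.0526).

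The flanking elements of Neurod2 separated the groups better than its start site did. The intergenic element 8.47 kb upstream (chr11:98338117-98340990), also within 20 kb of Ppp1r1b and Stard3, measured 44.6 and 32.2 CPM in CTX against 7.38 to 13.0 CPM in the GEs. No GE sample came near the CTX values, and the log2 fold of 2.07 ± 0.26 (standard error, edgeR adjusted p = 0.00483) remained called in 8 of 8 fits without a sample and at 1.45 with the covered-length offset (edgeR adjusted p = 0.00490). The elements 14.9 kb downstream and 3.15 kb upstream measured 15.4 and 3.97, and 36.6 and 14.2 CPM in CTX, above all GE samples (log2 folds 2.39 and 2.06, edgeR adjusted p = 0.0147 and 0.0142), and were called in 6 and 7 of 8 fits without a sample. The 3 tested elements farther upstream, towards Ppp1r1b, were not called (log2 folds 0.53, 0.22 and 0.02).

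Neurod6 (chr6:55677822-55681263, minus strand), another gene of postmitotic projection neurons, showed the largest window difference of the 8 genes. Its window held 161 and 75.3 CPM in CTX, 14.8 and 16.8 in the MGE samples, 37.1 and 31.2 in the LGE samples, and 41.7 and 26.1 in the CGE samples. Both CTX samples lay above all GE samples, and the log2 fold was 2.20 ± 0.27 (SE, edgeR adjusted p = 0.00740). The start-site element, which also overlaps Gm3279, measured 130 and 41.7 CPM in CTX against 11.3 to 30.2 CPM in the GEs (log2 fold 2.25 ± 0.35, SE, edgeR adjusted p = 0.00871). It covered 10966 bases in CTX replicate 1 but 1487 in MGE replicate 1, and the fold per covered base was 0.50 (edgeR adjusted p = 0.394).

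The distal Neurod6 element 18.9 kb upstream (chr6:55700204-55701659), which overlaps no annotated gene, measured 23.5 CPM in CTX replicate 1 and 33.6 in replicate 2. The MGE samples measured 3.57 and 5.07, the LGE samples 10.4 and 10.55, and the CGE samples 11.5 and 7.70. The log2 fold was 1.98 ± 0.23 (SE, edgeR adjusted p = 0.00398), 1.47 with the offset (edgeR adjusted p = 0.00402), and it was called in 8 of 8 fits without a sample. Within CTX it was higher in replicate 2, where the start-site element of the same gene was lower.

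Bhlhe22 (chr3:18054174-18057517, plus strand), a regulator of area identity in postmitotic cortical neurons, was higher in CTX. Both of its tested elements also lie within 20 kb of Cyp7b1. Its window held 99.2 and 125 CPM in CTX, 57.9 and 63.8 in the MGE samples, 60.3 and 54.9 in the LGE samples, and 70.3 and 63.7 in the CGE samples (log2 fold 0.90 ± 0.12, SE, edgeR adjusted p = 0.00978). The start-site element measured 84.9 and 93.4 CPM in CTX against 51.7 to 61.5 CPM in the GEs (log2 fold 0.76 ± 0.10, SE, edgeR adjusted p = 0.00541), and 0.65 with the offset (edgeR adjusted p = 0.0194). The intergenic element 3.42 kb downstream measured 12.9 and 31.1 CPM in CTX and 3.19 to 10.3 CPM in the GEs (log2 fold 1.89 ± 0.35, SE, edgeR adjusted p = 0.0147). It covered 3502 and 3513 bases in CTX against 705 to 1625 in the GEs, and the fold per covered base was 0.03 (edgeR adjusted p = 0.972).

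With the covered length as an offset none of the 8 windows was called, while 0.143% of 18149 genes were. The log2 folds were then 0.91 for Neurog2 and for Neurod2, 0.68 for Neurod6 and 0.06 to 0.46 for the other members, and edgeR gave 4 of the 8 an unadjusted p under 0.05, as it did 2897 of all 18149 genes. Peaks of CTX covered 20.9 and 19.8 kb around Neurog2 against 11.6 to 17.4 kb in the GEs, and 13.6 and 7.73 kb around Neurod6 against 2.27 to 5.57 kb. Longer peaks and more counts per base cannot be told apart from these sums. Fewer nuclei with an open element and less opening per nucleus cannot be told apart from the summed counts either.

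Among the 28 elements that lacked a peak in some sample, 9 had a peak in 1 sample and 19 in 2 to 7. Peaks of 8 elements were found in CTX alone, of Neurog1 (1), Neurog2 (3), Neurod1 (1), Neurod6 (2) and Nhlh1 (1). Peaks of 5 were found in the GEs alone, of Neurog1 (3) and Nhlh1 (2). These were 14.8% and 9.26% of the 54 member elements, against 25.9% and 23.9% of all 292532 elements. None of the 13 exceeded 7.99 CPM in any sample, the value of the Neurod6 element 8.35 kb upstream in CTX replicate 1. A missing peak is not a count of 0, and these elements were not tested.

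The order of early and late genes was then examined within CTX, as a description without a test, beside the ratios of the GE pairs. The log2 ratio of CTX replicate 2 (E14.5) over replicate 1 (E12.5) was 0.06 for the Neurog1 window, 0.31 for Neurog2 and 0.34 for Bhlhe22. It was -0.56 for Neurod1, -0.84 for Nhlh1, -1.10 for Neurod6, -1.45 for Neurod4 and -1.60 for Neurod2. The same ratio in the GE pairs ranged from -0.98 (Neurod2 in MGE) to 0.85 (Neurod4 in MGE). It was below 0 in all 3 GE pairs for Neurod2 (-0.98, -0.35 and -0.07) and for Nhlh1 (-0.41, -0.60 and -0.30), the same sign as in CTX. Within CTX the ratios did not follow the order of early and late genes. Neurod4, switched on early, was lower in replicate 2, and Bhlhe22, known from postmitotic neurons, was higher. On counts, Neurod6, Neurod4 and Neurod2 fell more than 2-fold towards the library labelled E14.5, while the other members did not. Of all gene windows 4.93% fell this far, 1.81% went more than 2-fold the other way and 48.7% were lower by any amount. These ratios were not scaled by covered length. At the Neurod6 start-site element peaks covered 10966 bases in CTX replicate 1 and 6304 in replicate 2, with 11.8 and 6.62 CPM per covered kb. All 6 pan-neuronal marker windows (Dcx, Tubb3, Stmn2, Mapt, Rbfox3 and Elavl3) were also lower in the library labelled E14.5, with a summed level of 719 CPM against 1132, and 953 to 1265 CPM in the GEs. Radial glia markers were higher there in 5 of 6. The part of this shift in the differences between members was not tested.

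Elements of one gene did not always move together in this respect. The distal elements of Neurog2 at 12504 bp, Bhlhe22 at 3.42 kb and Neurod6 at 18.9 kb were higher in CTX replicate 2, with log2 ratios of 1.26, 1.27 and 0.52. The start-site elements of Neurod6, Neurod2 and Nhlh1 were lower, with -1.64, -2.53 and -1.26. Per covered kb these 3 fell less, from 11.8 to 6.62, from 11.4 to 3.43 and from 9.89 to 5.90 CPM. Position did not separate these groups, since the distal elements of Neurod2 (-1.95, -1.37 and -0.47) and Nhlh1 (-2.07) were lower too, and the start-site elements of Neurog2 and Bhlhe22 were higher (0.41 and 0.14). Among the called elements, opposite signs within 1 gene were found for Neurod6 and Neurog2, where the element 3.79 kb upstream had -0.35. The distal Neurod2 elements and the Nhlh1 element were also lower in replicate 2 in all 3 GE pairs, with ratios from -0.89 to -0.22 for Neurod2 and from -0.93 to -0.79 for Nhlh1, and the Neurod2 element 8.47 kb upstream fell less in CTX than in MGE (-0.79) and LGE (-0.73). Of the 26 tested elements 9 were higher in CTX replicate 2 and 17 lower, while of all elements 46.6% were higher there. Taking CTX replicate 1 alone against the GEs, 18 of the 26 elements and 7 of the 8 windows were called (26.3% and 13.0% in all), and with CTX replicate 2 alone 12 elements and 3 windows were called (24.2% and 5.4% in all, with 3.56% of genes higher). In such fits the lone CTX sample is assumed to vary like the other groups. The 3 windows were those of Neurog2, Neurod6 and Bhlhe22, with log2 folds of 1.54, 1.54 and 1.05 (edgeR adjusted p = 0.00186, 0.0124 and 0.00712).

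**Figure D3:**
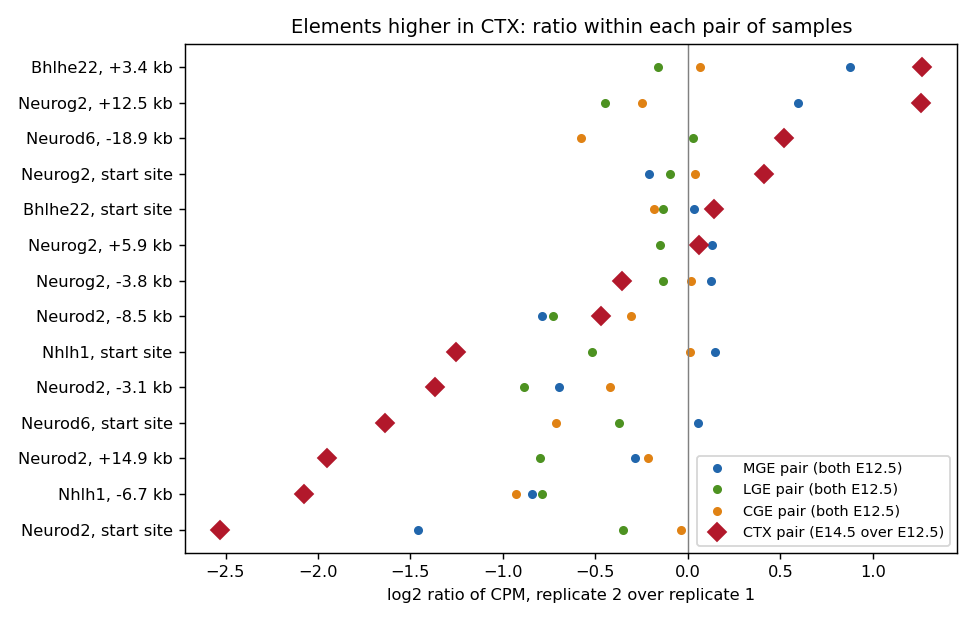
log2 ratio of CPM of replicate 2 over replicate 1 (horizontal axis) for the 14 elements called higher in CTX, each a row named by gene and distance from the start site. Diamonds are the CTX pair, E14.5 over E12.5, and dots the 3 GE pairs, both E12.5; the CTX ratios run from -2.53 at the Neurod2 start site to 1.27 at the distal Bhlhe22 element, a wider span than in any GE pair.

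Among the eminences 0 of the 26 elements and 0 of the 8 windows were called in the edgeR fit of all samples, where 0.103% of elements and 0.047% of genes were, and 6 elements and 3 windows had an unadjusted p under 0.05, as had 12.6% of all elements and 5.25% of all genes. DESeq2 called 3 elements and 1 window, against 8.19% of all elements and 1.63% of all genes. When the 6 GE samples were fitted alone, 6 elements were called (10.9% in all), and no window. They were the Neurog2 element at 12504 bp, the start-site and distal elements of Neurod6, the start-site element of Nhlh1, the Neurod4 element 13.1 kb upstream and the Bhlhe22 element at 3.42 kb (edgeR adjusted p = 0.00748, 0.0422, 0.0354, 0.0194, 0.0156 and 0.0426). In the first 5 of these both MGE samples were lower than every LGE and CGE sample. The 6 were picked by a test on the same samples, so some separation was built in. The share of all elements with this order was not computed. At the Bhlhe22 element LGE was lowest, with 3.57 and 3.19 CPM.

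The share of nuclei with at least 1 count was computed as its expectation over draws of 10000 counts from each nucleus, which left out 574 to 2208 nuclei per library. A count was found in a Neurog2 element in 73.7% and 84.1% of CTX nuclei and in 44.2% to 57.6% of GE nuclei. For Neurod6 the shares were 59.0% and 35.3% against 9.16% to 22.7%, and for Bhlhe22 41.4% and 49.3% against 28.1% to 33.2%. Groups did not overlap for these 3 genes, but shares were not computed over all genes, so that no such count can be set beside it. Each of the 3 reached the smallest p that 28 arrangements of the samples allow (two-sided exact permutation p = 0.0357, adjusted over the 8 genes 0.0952). None of the 8 therefore passed 0.05 after adjustment, which this design could reach only had at least 6 genes been at the smallest p. Neurod2 was found in 75.1% and 40.8% of CTX nuclei and in up to 42.8% in the GEs, Nhlh1 in 58.5% and 39.2% and up to 40.8%, and Neurod1 in 44.9% and 34.4% and up to 35.1%. Neurod4 was found in 17.4% and 7.97% and up to 10.5%, and Neurog1 in 29.9% and 33.2% and up to 35.5%. Over the elements with a peak in all 8 samples alone, Neurod4 was found in 5.23% and 4.22% of CTX nuclei and in 2.58% to 6.83% of GE nuclei. Without drawing counts the Neurog2 shares were 75.5% and 81.4% against 47.3% to 58.7%. Counts were taken in the peaks of each sample, and covered length was not corrected for. At the Neurod6 start-site element peaks covered 10966 and 6304 bases in CTX and 1487 to 4511 bases in the GEs. No level was set that would separate background counts from an open element, so the values are shares of nuclei with a count and not of glutamatergic nuclei.

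Shares of nuclei were also computed for single elements. The Neurog2 element at 12504 bp was detected in 16.3% and 36.9% of CTX nuclei, in 1.41% and 1.97% of MGE nuclei, in 4.83% and 3.38% of LGE nuclei and in 6.86% and 5.83% of CGE nuclei. The Neurod6 element at 18.9 kb was detected in 12.48% and 18.4% of CTX nuclei and in 2.31% to 6.75% of GE nuclei. The Neurod2 start-site element was detected in 52.8% and 13.6% of CTX nuclei and in 8.61% to 19.3% of GE nuclei.

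Detection in the same nuclei was compared for 8 elements chosen after their values had been seen, again as a description. In CTX replicate 2 the Neurod2 start site was detected in 37.3% of the nuclei with a count at the Nhlh1 start site and in 10.6% of the others. In CTX replicate 1 the shares were 64.2% and 48.6%. The difference had the same sign in all 8 samples, from 2.62 percentage points in MGE replicate 2 to 26.7 in CTX replicate 2. The Neurod6 distal element went the other way in 6 of 8 samples, with differences of 0.158 and 0.129 percentage points in MGE replicate 2 and LGE replicate 2. Its nuclei had a count at the Neurod2 start site in 37.5% of cases against 55.0% of the other nuclei in CTX replicate 1, and in 9.79% against 14.503% in CTX replicate 2. Both Neurog2 downstream elements tended to be detected together, the one at 18.3 kb being found in 24.7% of the CTX replicate 1 nuclei with the one at 12504 bp and in 13.9% of those without. In nuclei of 1 library such shares also carry differences in the composition of the nuclei, whose part was not tested.

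**Figure D4:**
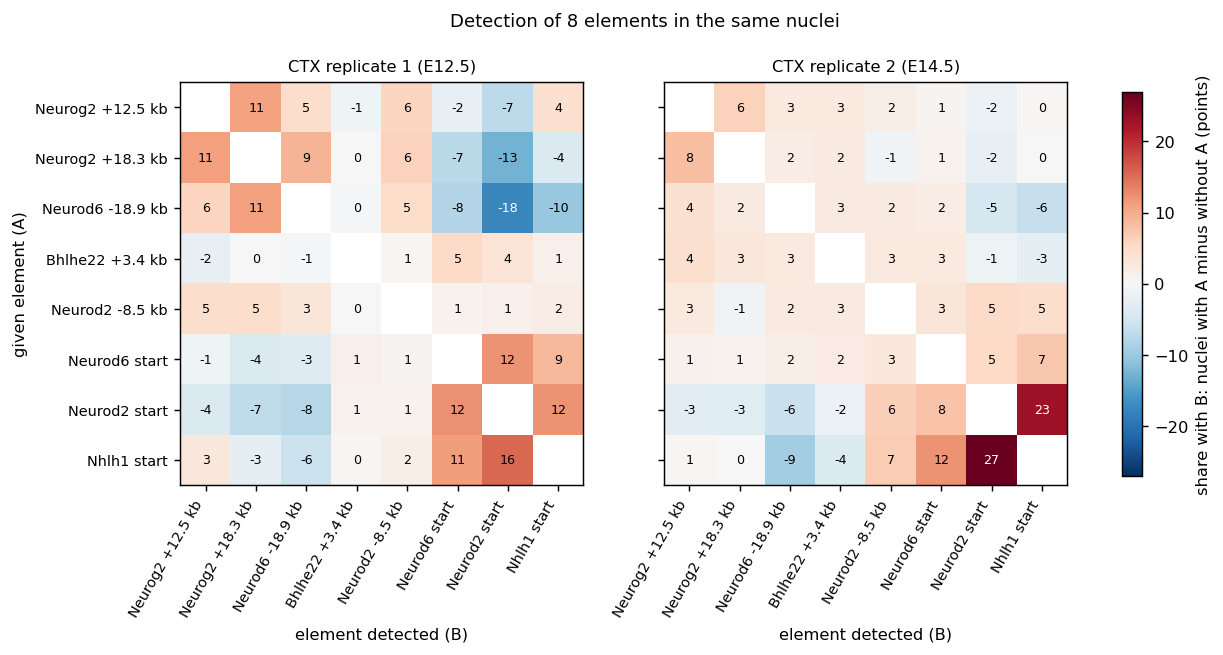
Difference in percentage points between the share of nuclei with element B among nuclei with element A (rows) and among nuclei without it, expected after drawing 10000 counts per nucleus, for CTX replicate 1 (left) and replicate 2 (right). Red marks elements found together more often; start-site elements of Nhlh1, Neurod2 and Neurod6 form a red block, and the Neurod6 element at 18.9 kb is blue against the Neurod2 and Nhlh1 start sites in both samples.

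Motif counts, a readout that did not enter the choice of elements, are the counts of a library in peaks holding a given motif. Of 579 motifs 6 were named for a member, and 0 of the 6 were called (edgeR; 0.0% of 579 in all), with 3 at an unadjusted p under 0.05 (21.8% of all motifs) and 3 called by DESeq2 (14.2% of all motifs). Without CTX replicate 2 edgeR called 1 of the 6 (0.864% in all). The Neurod2 motif took 0.424 and 0.334 per 1000 motif counts in CTX against 0.228 to 0.347 in the GEs (log2 fold 0.53 ± 0.11, SE, edgeR adjusted p = 0.0821). The Neurog1 motif took 0.548 and 0.337 against 0.216 to 0.317 and was above every GE sample in both (log2 fold 0.68 ± 0.19, SE, edgeR adjusted p = 0.127). The Bhlhe22 motif took 0.479 and 0.261 in CTX against 0.206 to 0.276 in the GEs, so that CTX replicate 2 lay within the range of the GEs (log2 fold 0.64 ± 0.20, SE, edgeR adjusted p = 0.168). The Nhlh1 motif took 0.591 and 0.572 in CTX against 0.579 to 0.818 in the GEs, with overlapping groups (log2 fold -0.25 ± 0.11, SE, edgeR adjusted p = 0.239). For the Neurod1 and Neurog2 motifs CTX replicate 2 also lay within the range of the GEs. Motifs of bHLH factors resemble each other and are counted in shared peaks. Over the 8 samples the log2 levels of the 6 motifs nonetheless ranged from opposed to alike (Pearson r of -0.73 to 0.97 between pairs).

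Other genes of the pathway were taken from lists. Of 14 genes of the glutamatergic lineage or known as proneural targets, 3 were higher in CTX and none lower (4.79% and 1.01% of all genes), and 1 was called with the covered-length offset. The list had a median log2 fold of 0.24, against 0.0058 over all genes and 1.11 over the 8 members. The 3 higher genes were Fezf2, a determinant of subcortical projection neurons (log2 fold 1.29, edgeR adjusted p = 0.00439), Slc17a6, which encodes a vesicular glutamate transporter (log2 fold 1.00, edgeR adjusted p = 0.0361), and Sox5 (log2 fold 0.73, edgeR adjusted p = 0.0304). The T-box genes Eomes and Tbr1 gave 0.48 and 0.55 and did not pass (edgeR adjusted p = 0.122 and 0.0874). Of 16 other bHLH genes 1 was higher and 3 were lower, against the same 4.79% and 1.01%, with a median log2 fold of -0.04, and with the covered-length offset 0 were called. Tcf4, which encodes an E protein, was higher (log2 fold 1.29, edgeR adjusted p = 0.0130). Among those lower were Olig1 and Olig2, known from ventral progenitors and the oligodendrocyte lineage (log2 folds -1.48 and -1.04, edgeR adjusted p = 0.00439 and 0.0128).

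Over the 8 samples the window most like that of Neurog2 was Fezf2 (Pearson r = 0.98 of log2 of CPM + 1), followed by Uts2 and Twsg1. Exph5 and Dupd1 were among the 3 most like Neurod6, and Lrrc59, Ptges and Dusp14 most like Neurod2 (r of 0.98 to 0.99). For Neurod4 they were Stom, Syce1l and Ldb2, for Nhlh1 Tcf15, Rtn4rl2 and Slc6a17, and for Bhlhe22 Vmn2r2, Phactr2 and Vmn2r1. For Neurod1 they were Gm37240, Shisa6 and Wdr31, and for Neurog1 Gucy2e, Ubr4 and Sytl1. Among the members, Neurog2 and Bhlhe22 were alike (r = 0.93), as were Neurod6 and Nhlh1 (0.91), and Neurog1 was like no other member (r of -0.13 to 0.32). With 8 samples of 4 regions these values describe the likeness of patterns that share libraries and depth.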

How the data were processed

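Nuclei of 8 samples were profiled with a droplet kit. Per the labels, the authors used Cell Ranger ATAC 1.2.0 and the build GRCm38 (mm10); the deposited peak matrices and motif matrices hold raw counts per nucleus, with peaks called in each sample separately. Coordinates are 1-based; genes are those of GENCODE M21, start sites of printed promoters those of RefSeq (GRCm38.p6).

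Overlapping peaks of the 8 samples were merged and counts summed over nuclei. Regions with a peak in all 8 samples, windows of 20000 bp on each side of every protein-coding gene, and motifs were tested with edgeR 4.0.16 (R 4.3.3) with TMM scaling and filterByExpr, as 4 groups of 2, with CTX set against the mean of MGE, LGE and CGE, an F test among the GEs, and Benjamini-Hochberg adjustment over all features. All 26 regions and 8 windows of the members passed the filter on low counts. In simulated counts for CTX against the GEs, 4-fold changes of 200 features were recovered for 71.5% among 68274 regions and for 98.5% among 19154 genes. These counts were drawn with the same spread in every group, while the CTX pair differed more in the data, so the rates need not hold here. The members and lists were chosen with earlier results of these data known. Named for each member are the start-site element, the 2 other elements with the highest mean CPM, called elements (the 3 with the largest fold where more are called), the 3 most alike windows, and the called genes of each list; other elements and genes named were chosen after their values were seen. Shares of nuclei (Python 3.11.15) are expected values after drawing 10000 counts without replacement from each nucleus with at least that many. DESeq2 1.42.0, RLE scaling, no filter, a covered-length offset, narrower windows, a replicate block and fits without each sample were alternatives. No doublets were called. A few genes and sequences that these rules name are not reported here.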

Additional observations from a re-analysis of the deposited data

Results flagged for a closer look

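At the Neurod2 element 11.9 kb upstream, MGE replicate 1 stood apart from the other GE samples, with 10.75 CPM against 7.68 to 8.70. At the element 15.4 kb upstream the same sample measured 6.78 CPM against 3.46 to 4.65. Its gap to the nearest sample was 0.667 and 0.641 of the range of the 6 GE samples, above Dixon's critical value for 6 samples. Chance flags about 1 in 20 such groups, and 2 of 34 values tested over the GE samples were flagged.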

How the results depend on the processing

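The 14 elements called between CTX and the GEs became 8 without CGE replicate 2 (6.26% of all elements), with a range of 8 to 18 over the fits without a sample. Among the eminences 0 elements became 3 with DESeq2 (8.19% of all elements) and 6 with the 6 GE samples alone (10.9% of all elements). That number also varied over the fits without a sample. For windows among the eminences 0 became 1 with DESeq2 (1.63% of all genes). The 4 windows called between CTX and the GEs became 7 with DESeq2 (12.3% of all genes), 0 with the covered-length offset (0.143%) and 2 within 1000 bp of a start site (1.29%), with a range of 3 to 7 without a sample (7 without CTX replicate 2). For motifs the count of 0 became 3 with DESeq2 (14.2% of all motifs), and it also varied over the fits without a sample.

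Of 550 alternative values of 40 single results, 471 kept direction and side of the threshold, 47 lost and 22 gained a call, and 10 changed sign, none of them called in the fit reported. The log2 fold of the Neurog1 window was -0.052 over the gene body and 2000 bp upstream. Over the fits without a sample, lowest without CTX replicate 1 and highest without CTX replicate 2, it ranged from -0.17 to 1.43 for the Neurog1 element 13.4 kb upstream, from -0.15 to 0.54 and from -0.78 to 0.55 for the Neurod2 elements 15.4 and 17.5 kb upstream, and from -0.075 to 0.59 and from -0.060 to 0.63 for the Neurod1 and Neurog2 motifs. For the Neurod2 element at 15.4 kb it was -0.0035 with the offset. For the one at 17.5 kb it was -0.072 with the replicate block, -0.12 without MGE replicate 2 and -0.016 over all merged regions. The causes were not tested.

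Samples share a replicate number but no stated origin, and deviations of same-numbered samples correlated between -0.0417 and 0.324 over the 6 pairs of groups. Of the nonzero counts per peak and nucleus, 9.54% to 10.4% were odd numbers in samples numbered 1 and 5.17% to 5.85% in those numbered 2. The cause was not tested, and ratios of replicate 2 over replicate 1 run along the same split. With the replicate block 14 elements and 5 windows were called between CTX and the GEs (13.7% of all elements and 4.64% of all genes), and 0 elements, windows and motifs otherwise. Elements with few counts, such as those of Neurod4, limit what differences could be detected.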
